A study of Homo sapiens with 4 samples.

Results

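The genes described here are the brighter members of the human ZNF symbol group, most of which encode zinc finger proteins. They were chosen by symbol and by measured signal: ZNF followed by digits and at most 1 letter, each gene represented by its brightest single-symbol probe set, and kept where the mean log2 signal over the 4 arrays was at or above the 75th percentile of all 54613 non-control probe sets. That threshold was a mean log2 signal of 8.05, or a signal of 265.6. Of 466 ZNF genes with a single-symbol probe set, 121 (26.0%) passed it, and 345 did not. Of all 19775 genes, 8130 (41.1%) passed. The brightness of the 121 genes is what the rule used and is given only as a description.

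HCCLM3, a human hepatocellular carcinoma cell line, was sorted magnetically by EpCAM, an adhesion molecule of epithelial cells by which liver tumour-initiating cells are also recognised. There were 4 groups of 1 Affymetrix U133 Plus 2.0 array each. EpCAM-negative cells were transfected for 4 days with 100 nM miR-429 mimics, which supply the microRNA, or with 100 nM miR-NC mimics, the negative control (NC). EpCAM-positive cells received 40 µM Antagomir-429, a cholesterol-conjugated inhibitor of miR-429, or 40 µM Antagomir-NC for 4 days. The stated aim was a search for miR-429 targets, and all groups come from this 1 line. With 1 array in each group there is no spread between replicates, so every ratio below is a difference between single arrays and has no test. In such bulk RNA, fewer cells that express a gene and less of its RNA per cell cannot be told apart.

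Most ZNF proteins bind DNA through C2H2 zinc fingers, short repeats folded around a zinc ion, each of which contacts a few bases. Many also carry a KRAB domain, which recruits the corepressor TRIM28 and through it the histone methyltransferase SETDB1, so that transposable elements and other bound regions are silenced. In primates these genes lie largely in clusters, above all on chromosome 19, that arose by duplication. A symbol is not a domain: ZNF185, for example, encodes a LIM domain protein of the actin cytoskeleton, and ZNF598 is also a RING ubiquitin ligase. Protein sequences were not used here, so the genes were not divided by KRAB or finger number.

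The microRNA that was added or blocked belongs to the miR-200 family, best known for repressing ZEB1 and ZEB2, zinc finger repressors of epithelial genes whose symbols lie outside the ZNF group. Its RefSeq mature sequence (GRCh38.p14, chr1:1169055-1169076, plus strand) is shown with 2 relatives, from chr1:1167160-1167181 and chr12:6963742-6963764, both on the plus strand, because all 3 share bases 2 to 8, the seed that pairs with targets (capitals).
hsa-miR-429: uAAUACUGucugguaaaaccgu
hsa-miR-200b-3p: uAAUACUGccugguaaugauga
hsa-miR-200c-3p: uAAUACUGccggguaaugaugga
Transcript sequences were not used here, so seed matches in the ZNF transcripts were not analysed.

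The deposited signals had a trimmed mean of 500.1 on each array, so they were taken as already scaled. Of the epithelial and liver markers, KRT8 and KRT18 were bright on every array, with KRT8 at 28365 to 33449. ALB, AFP, APOA1, TTR and KRT19 lay below the threshold. EPCAM had a signal of 1235 on the EpCAM-positive NC antagomir array against 1106 on the EpCAM-negative NC mimic array, a log2 ratio of 0.16, so the sort was hardly seen in its mRNA. On the miR-429 mimic array EPCAM was at 3838, and on the antagomir-429 array at 913. No leukocyte marker of 4 passed the threshold, and their summed signal was 153 to 264. Of 7 endothelial and stromal markers, COL1A1 and ACTA2 passed, and the summed signal was 7890 to 11460, highest on the NC antagomir array. Most of that sum was COL1A1, with 7162 to 10500. The actin 3′/5′ signal ratio was 2.63 for the miR-429 mimic, 3.41 for the NC mimic, 3.07 for antagomir-429 and 3.12 for the NC antagomir. The GAPDH 3′/5′ ratio was 0.92, 0.92, 0.90 and 0.92 in the same order. Poly-A spike controls had mean log2 signals of 11.35 (miR-429 mimic), 12.17 (NC mimic), 11.82 (antagomir-429) and 11.74 (NC antagomir). Hybridization controls had 13.05, 13.51, 13.30 and 13.29 on those arrays. What part these differences have in the ZNF ratios was not tested.

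The 121 ZNF genes were mostly near the bottom of the range that the rule admits. Their median mean log2 signal was 8.90, against 10.32 for all 8130 genes past the threshold. The mean signal was under 512 for 65 of them, 512 to 1024 for 36, 1024 to 2048 for 11 and 2048 or more for 9. Just inside the threshold were ZNF843, ZNF836 and ZNF446, with mean signals of 265.9, 269.2 and 270.1. Just outside it were ZNF236, ZNF789 and ZNF202, at 259.2, 258.2 and 256.1. On single arrays, 112 of the 121 were at or above the threshold with the miR-429 mimic against 118 with the NC mimic, and 113 with antagomir-429 against 113 with the NC antagomir. These counts rest on values that the rule used and were not made for all genes, so no difference between arrays is read from them. Signals of different probe sets depend on the probes as well as on the RNA, so no order of RNA amount among genes is drawn from them.

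The ZNF genes did not shift together in any of the 3 comparisons. With the mimic (miR-429 over NC), the median log2 ratio of the 121 was −0.01, the same as the −0.01 of all 8130 genes. With antagomir-429 over the NC antagomir it was 0.01, against 0.00 for all. For the EpCAM-positive over the EpCAM-negative control array (NC antagomir over NC mimic) it was 0.01, against −0.00. This comparison shares a control array with each of the others, and in it the sort and the reagent changed together, so that the effects of the EpCAM sort, of lipid transfection and of the antagomir cannot be told apart. The spread of the ZNF ratios was also near that of all genes: their SD was 0.42 against 0.43 with the mimic, 0.31 against 0.28 with antagomir-429 and 0.37 against 0.36 between the controls.

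Few members differed by 2-fold or more. With the mimic, 1 was at least 2-fold higher, where 1.8% of all 8130 genes were, and 2 were at least 2-fold lower, where 0.443% were. With antagomir-429, 0 of 121 were 2-fold higher and 0 were 2-fold lower. The background there was 0.295% higher and 0.185% lower. Between the control arrays 1 member was 2-fold higher (background 0.738%) and 1 was 2-fold lower (background 0.738%). Ratios above 0 were found in 59 members (48.8%) with the mimic, 64 (52.9%) with antagomir-429 and 61 (50.4%) between the controls, against 48.7%, 50.7% and 49.5% of all genes. These shares lie near the background. Under quantile normalization 37.2% of members and 47.1% of all genes were above 0 with the mimic. The all-gene split at 2-fold then moved to 114 higher and 56 lower with the mimic, against 146 and 36 as deposited, and to 17 and 16 with antagomir-429, against 24 and 15. Between −0.5 and 0.5 on the log2 scale lay 99 members with the mimic, 105 with antagomir-429 and 101 between the controls. All genes were not counted within these limits, but their quartiles were near those of the members. With the mimic the quartiles were −0.25 and 0.24 for members and −0.29 and 0.30 for all genes. They were −0.15 and 0.18 against −0.14 and 0.16 with antagomir-429, and −0.23 and 0.23 against −0.20 and 0.22 between the controls.

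**Figure D1:**
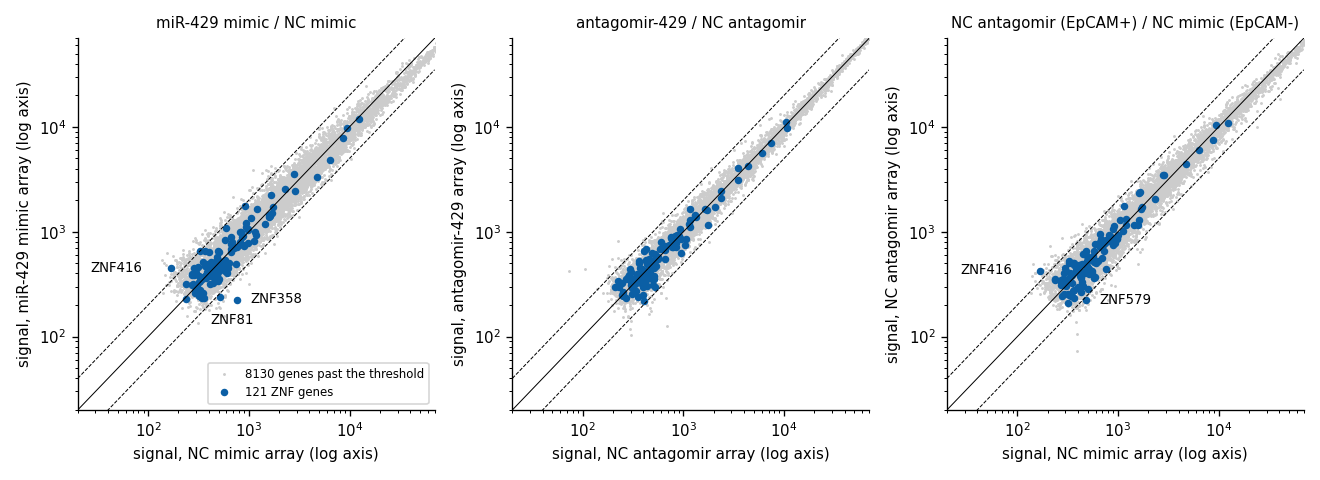
Signals of the 121 ZNF genes (blue) and of all 8130 genes past the brightness threshold (grey) on the 2 arrays of each comparison, both axes logarithmic, with the array named first in the panel title on the vertical axis. The solid line marks equal signals and the dashed lines a 2-fold difference: ZNF416 lies above the upper line, and ZNF358 and ZNF81 below the lower line, in the mimic panel.

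**Figure D2:**
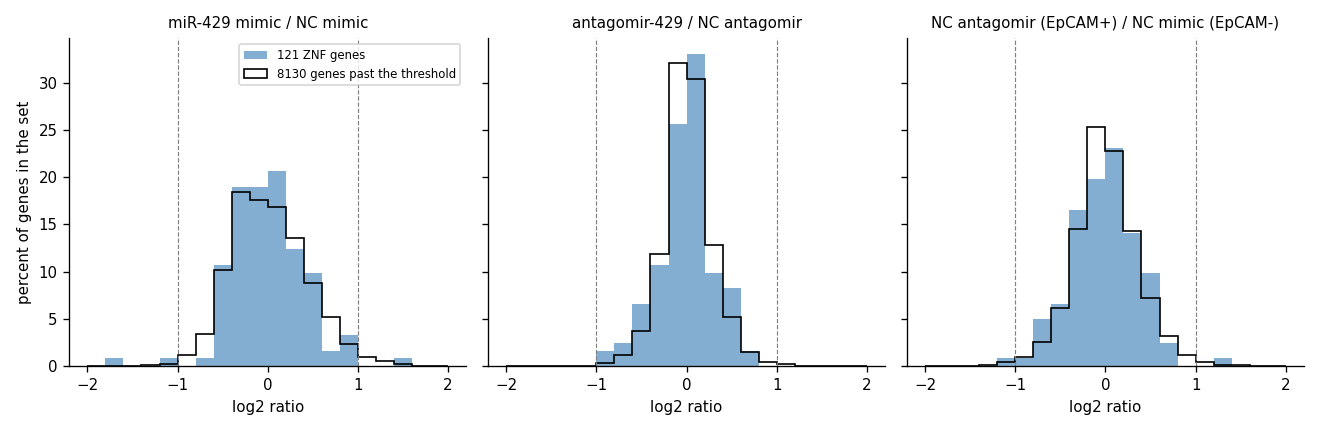
Distribution of the log2 ratio in each comparison for the 121 ZNF genes and for all 8130 genes past the threshold, as the percentage of each set per bin, with dashed lines at 2-fold and ratios beyond 2 log2 units placed in the end bins. The medians of the ZNF genes are −0.01 with the mimic, 0.01 with antagomir-429 and 0.01 between the controls, next to those of all genes.

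Several of the 10 brightest members have roles away from KRAB repression. ZNF503, a NET family corepressor without a KRAB domain, had signals of 11881 with the miR-429 mimic against 12419 with the NC mimic, and 9813 with antagomir-429 against 10803 with the NC antagomir. Its log2 ratios were −0.06 with the mimic and −0.14 with antagomir-429. ZNF703, its NET family relative and an oncogene amplified in luminal breast cancer, had signals of 2453, 2873, 3143 and 3480 in the same order of arrays. It was higher on both arrays of EpCAM-positive cells than on either array of EpCAM-negative cells, with ratios of −0.23 with the mimic, −0.15 with antagomir-429 and 0.28 between the controls.

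Factors of ribosome assembly and of translation quality control were also present. ZNF622, a factor of late maturation of the large ribosomal subunit, had signals of 7822 (miR-429 mimic), 8703 (NC mimic), 6959 (antagomir-429) and 7419 (NC antagomir). ZNF593, whose yeast counterpart acts in export of that subunit, had 4842, 6337, 5676 and 6078 on those arrays. It was lowest on the miR-429 mimic array, with a log2 ratio of −0.39 there and −0.10 with antagomir-429. ZNF598, which ubiquitinates ribosomes that have collided, had log2 ratios of 0.28 with the mimic and −0.14 with antagomir-429. ZNF346, which binds double-stranded RNA, had −0.11 and −0.10.

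The other bright members included ZNF207, known as BuGZ, which loads the spindle checkpoint protein BUB3 at kinetochores. Its signals were 3579 with the miR-429 mimic against 2827 with the NC mimic, and 4043 with antagomir-429 against 3468 with the NC antagomir. The NC mimic array was lowest, and all 3 ratios were above 0 (0.34, 0.22 and 0.29). ZNF185, the LIM domain protein, was also lowest on the NC mimic array, with 2255, 1648, 2432 and 2387 in that order, and a log2 ratio of 0.45 with the mimic and 0.03 with antagomir-429. ZNF511 had 3294 with the miR-429 mimic against 4728 with the NC mimic, or a log2 ratio of −0.52, and 4217 with antagomir-429 against 4417 with the NC antagomir. Of the other 3 among the 10 brightest, ZNF706 had ratios of 0.05 and 0.07 with the mimic and the antagomir, ZNF395 had 0.15 and −0.25, and ZNF362 had −0.15 and −0.17.

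ZNF416, a KRAB zinc finger gene of chromosome 19, was the member that was 2-fold higher with the mimic and also the one that was 2-fold higher between the controls. Its signals were 448 with the miR-429 mimic against 168 with the NC mimic, and 524 with antagomir-429 against 424 with the NC antagomir. The NC mimic array alone was low, and the other 3 lay within 424 to 524. That array stands under both ratios, 1.42 with the mimic and 1.34 between the controls, which are therefore not independent. Set against the NC antagomir array in place of the NC mimic array, the miR-429 mimic array gave a log2 ratio of 0.08. The gene's other probe set, below the threshold, had 106 with the miR-429 mimic against 109 with the NC mimic (−0.04), and 176 with antagomir-429 against 182 with the NC antagomir.

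ZNF358, a C2H2 gene, was the lowest of the 121 with the mimic. It had signals of 226 with the miR-429 mimic against 764 with the NC mimic, and 306 with antagomir-429 against 440 with the NC antagomir. The miR-429 mimic array was the lowest and the NC mimic array the highest of the 4. Its log2 ratio was −1.76 with the mimic, −0.52 with antagomir-429 and −0.80 between the controls, and −0.96 when the miR-429 mimic array was set against the NC antagomir array. The probe set carries the suffix _x_at, which marks probes that can bind other transcripts. The gene's other probe set, also _x_at and below the threshold, had 63 with the miR-429 mimic against 146 with the NC mimic. Its mimic ratio was −1.22 and thus of the same sign. Its other ratios were −0.08 with antagomir-429 and 0.50 between the controls, the last of opposite sign.

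ZNF81, an X-linked KRAB gene, was the other member past 2-fold lower with the mimic, and here the probe sets disagreed. By the brightest it had 239 with the miR-429 mimic against 519 with the NC mimic, and 298 with antagomir-429 against 398 with the NC antagomir, with log2 ratios of −1.12 with the mimic and −0.42 with antagomir-429. Its 5 dimmer probe sets, all below the threshold, had mimic ratios of 0.59 to 2.82, the opposite sign. Against the NC antagomir array the brightest gave −0.73. By their brightest probe sets ZNF358 and ZNF81 were lower on both treated arrays than on their controls, so the sign of their ratio was the same in both.

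After ZNF416, the members highest with the mimic were ZNF317, ZNF664, ZNF512 and ZNF217. ZNF317, a KRAB gene, had 649 with the miR-429 mimic against 326 with the NC mimic, and 470 with antagomir-429 against 529 with the NC antagomir, a mimic ratio of 0.99. ZNF664 had 1775, 911, 1192 and 1130 in that order, a mimic ratio of 0.96 and an antagomir ratio of 0.08. Its probe sets below the threshold had mimic ratios of 1.07, −0.99 and −1.81, so the sign depends on the probe set. ZNF512 had 1084, 597, 836 and 767, a mimic ratio of 0.86, and its second probe set past the threshold gave 1.20. In these 3, by the brightest probe set, the miR-429 mimic array was the highest and the NC mimic array the lowest. ZNF217, an oncogene product that binds CtBP and represses the cadherin gene CDH1, was arranged otherwise. It had 657 with the miR-429 mimic against 369 with the NC mimic (0.83), and 296 with antagomir-429 against 231 with the NC antagomir (0.36). Both arrays of EpCAM-positive cells were below both arrays of EpCAM-negative cells. Against the NC antagomir array its mimic ratio was 1.51, and the gene had no other probe set.

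The rest of the 10 highest with the mimic were ZNF275 (0.67), the KRAB genes ZNF587 (0.67) and ZNF611 (0.57), ZNF786 (0.55) and ZNF595 (0.55). Among these 10 members the miR-429 mimic array was the highest of the 4 in 8, and the NC mimic array the lowest in 8. The 10 lowest began with ZNF358 and ZNF81. They went on with ZNF446 (−0.62), which combines SCAN and KRAB domains, ZNF385A (−0.60), a p53 target that steers p53 toward arrest genes, ZNF576 (−0.59), ZNF865 (−0.55), ZNF146 (−0.55), ZNF511 (−0.52), ZNF787 (−0.51) and ZNF320 (−0.51). In these 10 the miR-429 mimic array was the lowest in 7 and the NC mimic array the highest in 7. ZNF865, for example, had 233 with the miR-429 mimic against 343 with the NC mimic, and 357 with antagomir-429 against 379 with the NC antagomir.

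**Figure D3:**
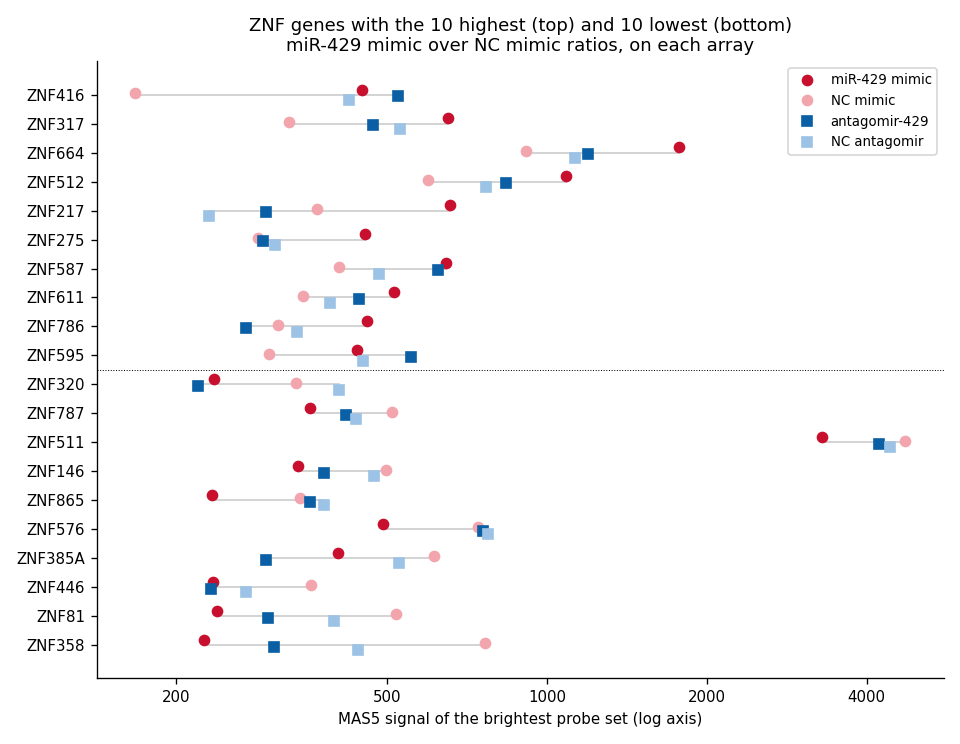
Signal on each of the 4 arrays, on a logarithmic axis, for the 20 members with the highest and lowest log2 ratios in the mimic comparison. Each point is 1 array: in ZNF416 the NC mimic array stands alone at 168, and in ZNF358 the signals run between 226 and 764.

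No member differed by 2-fold with antagomir-429. At the top were ZNF639 and ZNF200. ZNF639 had 488 with the miR-429 mimic against 391 with the NC mimic, and 683 with antagomir-429 against 424 with the NC antagomir, an antagomir ratio of 0.69. ZNF200 had 491, 423, 655 and 408 in that order, a ratio of 0.68. In both the antagomir-429 array was the highest, and the mimic ratio was also above 0, at 0.32 and 0.22. Probe sets below the threshold gave other antagomir ratios, −0.41 for ZNF200 and 1.185 and −2.78 for ZNF639. The sign thus depends on the probe set in both genes. Next came ZNF784 (0.60), ZNF579 (0.59), ZNF526 (0.56), ZNF544 (0.52), ZNF746 (0.51), ZNF142 (0.49), ZNF75A (0.45) and ZNF335 (0.44). The second probe sets past the threshold of ZNF544 and ZNF142 had antagomir ratios of 0.43 and −0.07. ZNF746, or PARIS, is a KRAB repressor of PGC-1α that parkin marks for degradation, and it had 1639 with antagomir-429 against 1152 with the NC antagomir. ZNF335 belongs to a complex that activates genes through histone methylation, and its loss causes microcephaly. In these 10 the antagomir-429 array was the highest of the 4 in 5, and the NC antagomir array the lowest in 8.

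At the other end stood ZNF320, with 236 (miR-429 mimic), 336 (NC mimic), 220 (antagomir-429) and 406 (NC antagomir), and an antagomir ratio of −0.88. Its other probe set, below the threshold, had 0.80, so the sign depends on the probe set. ZNF385A had 404, 611, 296 and 525, with −0.60 with the mimic and −0.83 with antagomir-429. It was lower on both treated arrays. ZNF133, a KRAB repressor, had 308 with antagomir-429 against 502 with the NC antagomir (−0.71), whereas its second probe set past the threshold had 338 and 245 (0.46). The rest of the 10 lowest were ZNF250 (−0.67), ZNF512B (−0.61), ZNF226 (−0.60), ZNF428 (−0.59), ZNF358 (−0.52), ZNF367 (−0.51) and ZNF205 (−0.46). The antagomir-429 array was the lowest of the 4 in 8 of these 10 members, and the NC antagomir array the highest in 7. As with the mimic, picking by ratio favours such orders at both ends, and nothing is read from these counts.

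RNA that miR-429 represses directly should fall when the mimic is added and rise when the antagomir blocks it. The mimic and antagomir comparisons share no array. No member at least 2-fold lower with the mimic was above 0 with antagomir-429, and none at least 2-fold higher was below 0. At 1.2-fold in both, a limit set after the values were seen, 4 members (3.31%) were lower with the mimic but higher with antagomir-429, against 2.53% of all genes. They were ZNF526 (−0.47 and 0.56), ZNF784 (−0.38 and 0.60), ZNF574 (−0.30 and 0.28) and ZNF579 (−0.30 and 0.59). Against the NC antagomir array the mimic ratio of all 4 turned sign, to 0.23, 0.12, 0.36 and 0.82 in that order. Against the NC mimic array the antagomir ratio was −0.13, 0.10, −0.38 and −0.52. Another 4 went the opposite way, against 2.71% of all genes: ZNF226 (0.44 and −0.60), ZNF133 (0.34 and −0.71), ZNF875 (0.42 and −0.27) and ZNF786 (0.55 and −0.32). The second probe set of ZNF133 past the threshold ran the other way in both, at −0.43 and 0.46. Against the NC antagomir array the mimic ratio of ZNF226, ZNF133 and ZNF875 turned to −0.09, −0.11 and −0.06, and that of ZNF786 was 0.44. Exchanging the control arrays also changes the sort and the reagent. Picking genes by their ratios to these same control arrays favours such turns of sign, so nothing is read from them. Counting signs alone, 26 members (21.5%) were below 0 with the mimic and above 0 with the antagomir, against 22.4% of all genes, and 21 (17.4%) the reverse, against 20.4%. The members' counts lie close to the background in both directions.

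The first 4 were compared on all arrays. ZNF526, linked to neurodevelopmental disease, had 420 with the miR-429 mimic against 580 with the NC mimic, and 529 with antagomir-429 against 359 with the NC antagomir. ZNF579 had 392, 482, 336 and 223 in that order. ZNF784 had 318, 413, 444 and 293. In each of these the NC antagomir array was below the NC mimic array, with ratios between the controls of −0.70, −1.12 and −0.50, and of −0.66 in ZNF574. Those ratios use the same control arrays and are not independent of the first 2. Across the 121 members the Spearman correlation of the mimic and antagomir ratios was 0.23, against 0.19 across all 8130 genes, and genes of 1 array are not independent points.

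Between the control arrays, ZNF579 was the only member 2-fold lower and ZNF416 the only one 2-fold higher. The next lowest were ZNF335 (−0.83), ZNF358 (−0.80), ZNF526 (−0.70), ZNF524 (−0.68), ZNF217 (−0.68), ZNF574 (−0.66), ZNF544 (−0.61), ZNF276 (−0.56) and ZNF784 (−0.50). The second probe set of ZNF544 past the threshold had 0.28, the opposite sign. By probe sets below the threshold ZNF358 had 0.50, ZNF335 had 0.01 and −0.55, and ZNF276 had −0.30. The next highest were ZNF317 (0.70), ZNF341 (0.64), ZNF512B (0.60), ZNF595 (0.59), ZNF16 (0.57), ZNF106 (0.56), ZNF362 (0.55), ZNF185 (0.53) and ZNF226 (0.53). In ZNF16 both arrays of EpCAM-positive cells were above both arrays of EpCAM-negative cells, with 350 (antagomir-429) and 354 (NC antagomir) against 228 (miR-429 mimic) and 239 (NC mimic). ZNF341, an activator of STAT3 transcription, was arranged the same way, with 377 and 508 against 270 and 326. Such orders by sort, also given above for ZNF703 and ZNF217, were not counted over all genes. The reagent differed with the sort in them, so no effect of the sort is read from them.

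Some members hardly moved on any array, and these were singled out after their values were seen. ZNF496 had 802 with the miR-429 mimic against 821 with the NC mimic, and 829 with antagomir-429 against 814 with the NC antagomir, a range of 0.05 on the log2 scale. ZNF143, an activator bound at many promoters, had 298, 307, 311 and 303, a range of 0.06. Over all 121 the median range across the 4 arrays was 0.51, against 0.46 for all genes past the threshold. The range was under 0.5 in 57 members (47.1%, against 56.0% of all genes) and at least 1 in 7 (5.79%, against 6.37%), namely ZNF358, ZNF416, ZNF217, ZNF81, ZNF579, ZNF250 and ZNF385A. The dimmest members scattered most, but the SD did not fall evenly with brightness. With the mimic it was 0.48 in the 65 with a mean signal under 512, 0.32 in the 36 at 512 to 1024, 0.41 in the 11 at 1024 to 2048 and 0.32 in the 9 at 2048 or more. With antagomir-429 it was 0.37, 0.21, 0.27 and 0.14. In the 345 ZNF genes below the threshold the SD of the mimic ratio was 1.49, with 77 of them 2-fold higher and 51 2-fold lower (37.1% in all). All 11645 genes below the threshold had an SD of 1.52, with 39.5% past 2-fold.

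A list of 35 ZNF genes with well-described roles held 17 of the members, and 0 of these 17 were past 2-fold in any comparison, again near the shares of all genes. Of the 17, 8 were above 0 with the mimic (median −0.03), 8 with antagomir-429 (median −0.02) and 6 between the controls (median −0.07), against 48.7%, 50.7% and 49.5% of all genes. ZNF274, which brings SETDB1 to the 3′ ends of other ZNF genes, had 757 with the miR-429 mimic against 670 with the NC mimic, and 836 with antagomir-429 against 849 with the NC antagomir. ZNF384, a nuclear matrix factor known from leukaemia fusions, had 1518, 1698, 1664 and 1650, a mimic ratio of −0.16. ZNF592 and ZNF687, which join ZMYND8 in a complex, had mimic ratios of 0.30 and −0.45, but the other 2 probe sets of ZNF592 past the threshold were below 0, at −0.24 and −0.39. ZNF330, a nucleolar protein, had 0.37 with the mimic and −0.22 with antagomir-429, and ZNF326, which acts in elongation and splicing, had 0.02 and 0.34.

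The genes through which KRAB proteins silence were also followed, on a list of 28 cofactor and heterochromatin genes. Of these, 21 passed the threshold, and 0 were past 2-fold in any comparison, which is near the shares of all genes given above (1.8% higher and 0.443% lower with the mimic). TRIM28 had 4660 with the miR-429 mimic against 4851 with the NC mimic, and 5256 with antagomir-429 against 5156 with the NC antagomir, with ratios of −0.06, 0.03 and 0.09. SETDB1 had 538, 486, 645 and 678, with ratios of 0.15 with the mimic and −0.07 with antagomir-429. The list's median was 0.15 with the mimic (14 of 21 above 0), −0.02 with antagomir-429 (9 above 0) and 0.15 between the controls (14 above 0), against 48.7%, 50.7% and 49.5% of all genes above 0. Its highest members with the mimic were MORC2 (0.63), an ATPase recruited by the HUSH silencing complex, and the HUSH subunit MPHOSPH8 (0.61). The lowest was the histone methyltransferase gene EHMT2 (−0.53). TASOR, ATRX, SUV39H2 and ZMYM2 were below the threshold.

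Other zinc finger symbol groups past the threshold were small. The 18 ZBTB genes, which pair zinc fingers with a BTB domain, had medians of 0.03 with the mimic, −0.12 with antagomir-429 and 0.08 between the controls. The 5 ZSCAN genes had 0.21, 0.22 and 0.08. With the mimic or the antagomir 0 genes of either group were past 2-fold, and between the controls 1 ZBTB gene was 2-fold higher, where 0.738% of all genes were.

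ZNF genes lie in clusters, and 39 of the 121 members are on chromosome 19, 17 on chromosome 16 and 13 on chromosome 7 in the RefSeq table. Of the 121, 60 lie next to another ZNF gene in the order of protein-coding genes, and 31 fall into 10 runs of adjacent members. With the mimic, 4 of the 10 runs had every ratio below 0, 0 had every ratio above 0 and 6 were mixed. With antagomir-429 it was 2 below, 0 above and 8 mixed, and between the controls 3 below, 2 above and 5 mixed. Runs of other genes were not counted, so no joint shift of neighbours is read from these numbers. The longest run, of 6 genes on chromosome 7, had mimic ratios of 0.47 (ZNF398), −0.30 (ZNF282), 0.03 (ZNF212), −0.18 (ZNF783), −0.36 (ZNF777) and −0.21 (ZNF746). A run of 5 on chromosome 19 had 0.05 (ZNF776), −0.10 (ZNF586), 0.11 (ZNF552), 0.22 (ZNF587B) and 0.67 (ZNF587). ZNF587 and ZNF587B are close copies, and probes may not tell their transcripts apart. In a run of 4 all were below 0 with the mimic, at −0.07 (ZNF524), −0.55 (ZNF865), −0.38 (ZNF784) and −0.29 (ZNF581). So were the neighbours ZNF576 (−0.59) and ZNF428 (−0.23), ZNF787 (−0.51) and ZNF444 (−0.21), and also ZNF324 (−0.32) and ZNF446 (−0.62), the last pair also being below 0 with antagomir-429 and between the controls.

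Gene length went with the mimic ratio, in the ZNF genes and in all genes. The members' median span in RefSeq was 18.8 kb, against 25.2 kb for all genes past the threshold. The Spearman correlation of span with the mimic ratio was 0.25 over the 121 members and 0.38 over 8128 genes, which share the same arrays and are not independent points. With antagomir-429 it was −0.06 and 0.11, and between the controls 0.25 and 0.21. In the 40 shortest members (median 7.9 kb) the median mimic ratio was −0.06, with 37.5% above 0. In the 40 of middle span it was −0.00, and in the 41 longest (median 46.0 kb) it was 0.13, with 58.5% above 0. All genes in the same span classes had medians of −0.21, −0.07 and 0.15, so the ZNF genes followed the pattern of all genes in a narrower range. The actin 3′/5′ ratio differed most between the arrays of this comparison (2.63 for the miR-429 mimic against 3.41 for the NC mimic). The GAPDH 3′/5′ ratio was 0.92 on both of these arrays. What part either has in the relation was not tested.

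**Figure D4:**
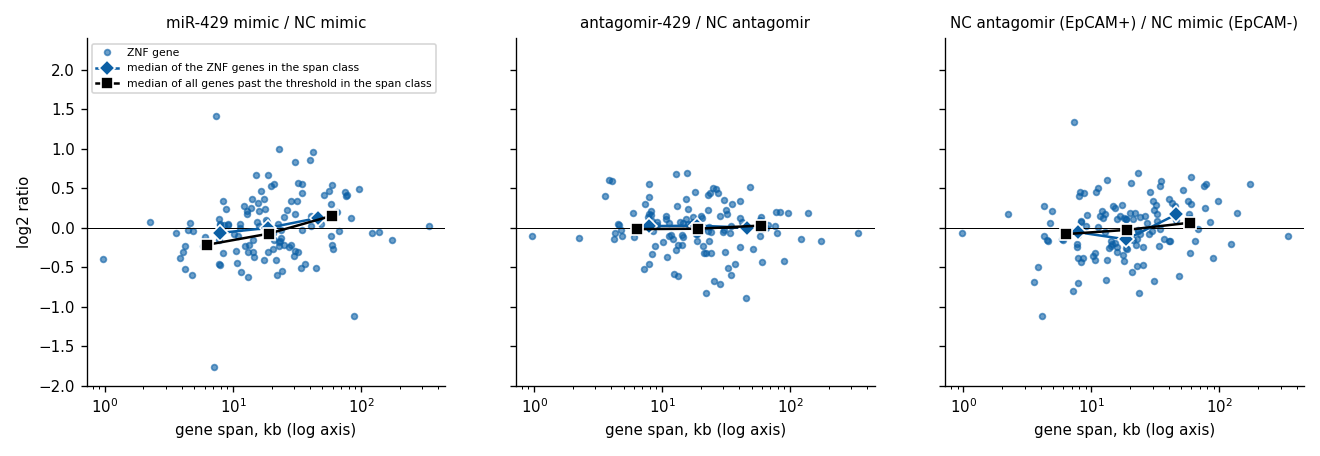
Log2 ratio against the gene's span in RefSeq (kb, logarithmic axis) for the 121 ZNF genes in each comparison. Diamonds are medians of the ZNF genes and squares those of all genes past the threshold in the same span classes: with the mimic they run from −0.06 to 0.13 and from −0.21 to 0.15.

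The promoters of these genes, 250 bases before to 50 after the start in RefSeq (GRCh38.p14), were searched for motifs, which the rule did not use. Promoters were found for 102 of the 121 members, and 4 exact motifs were searched on both strands. The core CCGGAAGT, the binding sequence of ETS factors such as GABPA, was present in 26 of 102 member promoters (25.5%). It was in 46 of 279 promoters of the dimmer ZNF genes (16.5%), in 9.57% of 6753 promoters of genes past the threshold and in 4.44% of all 27305. ACTACAATT, part of the ZNF143 motif, was in 1.96% of member promoters, 1.79% of the dimmer ZNF promoters, 0.578% of those past the threshold and 0.370% of all. GCGCATGCG, bound by NRF1, was in 2.94%, 4.30%, 4.00% and 2.10%, and AAGATGGCG, bound by YY1, in 1.96%, 3.58%, 4.47% and 1.85%. None of the 4 motifs is contained in another. A match describes the letters and not binding.

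**Figure D5:**
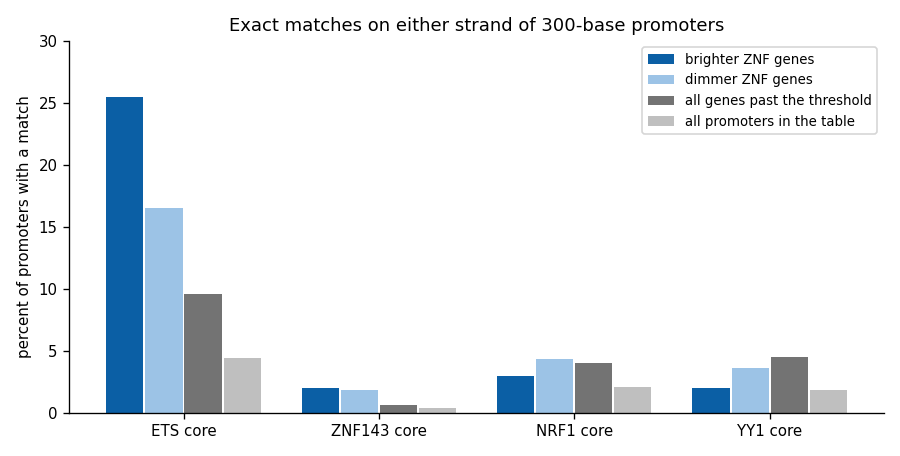
Percentage of promoters that hold each of 4 exact motifs on either strand, for the 102 members with a promoter, the 279 dimmer ZNF genes, the 6753 genes past the threshold and all 27305 promoters of the table. The ETS core reaches 25.5% in the members, against 4.44% in all promoters.

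The ratios of members with and without the ETS core are given side by side. The 26 with it had medians of −0.08 with the mimic, 0.01 with antagomir-429 and 0.07 between the controls, and the 76 without it had 0.03, 0.03 and 0.07. With the mimic 38.5% of those with the core and 52.6% of those without it were above 0, and their median spans were 14.8 and 22.2 kb. ZNF384 and ZNF787 had the most matches, with 3 each, and ZNF416, the highest with the mimic, had 1. ZNF358, the lowest, had none in this window. These 4 promoters are shown for that contrast, 5′ to 3′ on the gene's strand, with matches of the core or of its reverse complement in capitals. They lie at chr12:6689326-6689625 (ZNF384, minus strand), chr19:56121246-56121545 (ZNF787, minus strand), chr19:57578862-57579161 (ZNF416, minus strand) and chr19:7515853-7516152 (ZNF358, plus strand). In ZNF787 a forward and a reverse match overlap in 1 palindromic run.
ZNF384: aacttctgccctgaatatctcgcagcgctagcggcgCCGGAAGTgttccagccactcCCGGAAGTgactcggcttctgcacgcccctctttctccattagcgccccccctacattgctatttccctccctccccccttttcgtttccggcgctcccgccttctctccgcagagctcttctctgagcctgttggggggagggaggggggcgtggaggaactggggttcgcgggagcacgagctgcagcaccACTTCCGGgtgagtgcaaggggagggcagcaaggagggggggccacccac
ZNF787: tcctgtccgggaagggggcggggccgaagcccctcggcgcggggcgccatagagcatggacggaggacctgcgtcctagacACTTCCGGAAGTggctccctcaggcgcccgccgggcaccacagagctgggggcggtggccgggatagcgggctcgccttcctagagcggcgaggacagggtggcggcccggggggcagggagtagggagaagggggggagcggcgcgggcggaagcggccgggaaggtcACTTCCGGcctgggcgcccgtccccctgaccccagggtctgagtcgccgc
ZNF416: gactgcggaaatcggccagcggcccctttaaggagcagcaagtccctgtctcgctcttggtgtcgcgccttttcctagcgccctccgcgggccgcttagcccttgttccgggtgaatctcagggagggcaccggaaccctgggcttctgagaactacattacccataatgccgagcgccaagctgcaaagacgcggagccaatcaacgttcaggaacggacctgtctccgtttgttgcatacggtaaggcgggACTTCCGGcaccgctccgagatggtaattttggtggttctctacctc
ZNF358: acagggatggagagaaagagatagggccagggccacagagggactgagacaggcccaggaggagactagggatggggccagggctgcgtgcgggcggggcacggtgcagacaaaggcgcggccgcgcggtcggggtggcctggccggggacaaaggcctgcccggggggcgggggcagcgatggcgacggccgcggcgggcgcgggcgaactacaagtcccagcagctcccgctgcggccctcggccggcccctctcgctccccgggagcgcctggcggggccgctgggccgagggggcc

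The probe sets of a gene did not always give 1 answer. The 121 members had 274 probe sets, with 33 members measured by 1 alone. In 18 members more than 1 probe set passed the threshold, and in 6 of these the mimic ratios lay on both sides of 0. The widest disagreements were in ZNF133 (−0.43 and 0.34), ZNF592 (−0.39 to 0.30), ZNF254 (−0.19 and 0.49), ZNF576 (−0.59 and −0.12) and ZNF331 (−0.06 and 0.40). Over these 18 the median range of the mimic ratio among probe sets of 1 gene was 0.24. The brightest probe set of 42 members carries a suffix (_s_at, _x_at or _a_at) for probes shared between transcripts or genes, so near-identical ZNF copies may be counted together in these.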

How the data were processed

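Total RNA of 4 samples was measured on 1-colour arrays. The deposited values are log2 signals made by the authors with MAS5, per the submitters' processing notes. No source used here gives its version, target level or detection calls. The linear signals had a mean of 500.1 on every array once 2% was trimmed from both ends, so no scaling was added. The platform annotation gave 1 symbol for 41097 probe sets and several for 1801, which were left out. Entrez identifiers of 41043 matched the RefSeq table (GRCh38.p14), used for names, spans and neighbours. Ratios were log2 differences between single arrays, and counts used 2-fold. With 1 array per group no p-value was computed, and precision is limited by the number of arrays. The counting code recovered known large changes in simulated data with little noise, which checks the code and not the reliability of the counts. Members and lists were chosen with earlier results of these data known. Members were named by rank of brightness or ratio, by the role list, by probe-set disagreement, and by position near the threshold or in runs. The alternatives tried were quantile normalization, median centring, 13 signal units added before log2, the median over probe sets, _at probe sets alone, a threshold at the 50th percentile, both arrays past the threshold, and the control array of the other sort. Python 3.11.15, pandas 2.3.3, scipy 1.17.1 and matplotlib 3.10.9 were used.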

Additional observations from a re-analysis of the deposited data

How the results depend on the processing

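Medians of the members stayed within −0.07 to 0.04 with the mimic, −0.00 to 0.04 with antagomir-429 and −0.04 to 0.09 between the controls under the alternatives run, changing sign around 0. Quantile normalization lowered the share of members above 0 with the mimic to 37.2% (47.1% of all genes), against 48.8% as deposited. Lowering the threshold to the 50th percentile, a signal of 52.9, gave 291 ZNF genes, with 20 higher and 10 lower by 2-fold with the mimic (6.87% and 3.44%, against 5.25% and 3.76% of all 13180 genes). It gave 17 and 11 with antagomir-429 (5.84% and 3.78%, against 3.72% and 3.53%), and 16 and 26 between the controls (5.50% and 8.93%, against 3.62% and 4.70%). Requiring both arrays at or above the threshold left 0 higher and 0 lower with the mimic and 0 and 0 between the controls, because the calls had 1 array below it. The median over probe sets gave 2 higher with the mimic (ZNF512 joined, at 1.03), and _at probe sets alone gave 1 lower. With the control array of the other sort, 0 were lower with the mimic (ZNF358 −0.96, ZNF81 −0.73), 1 other gene was higher (ZNF217 1.51, with ZNF416 at 0.08), and antagomir-429 gave 1 higher and 2 lower (ZNF416 1.64, ZNF358 −1.32, ZNF385A −1.05). The cause was not tested. Of 1402 values of 65 named members, 57 changed sign, and 22 of these 57 were at least 0.25 from 0 as deposited. With the control array of the other sort, which also differs in reagent, 43 of 130 changed sign. It was 7 of 195 under quantile normalization, 4 of 195 with the median over probe sets and 2 of 195 under median centring. With _at probe sets alone it was 1 of 129. The lower threshold (195 values), both arrays past the threshold (168) and 13 added units (195) could not turn a sign. None of the values past 2-fold as deposited changed sign. Over all genes the mimic split of 146 higher and 36 lower became 132 and 44 under median centring and 114 and 56 under quantile normalization, and the split of 60 and 60 between the controls became 49 and 69 and 56 and 58. No paired analysis was possible because each group had 1 array, and no replicate could be left out.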
